A study of Mus musculus with 12 samples.

Results

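The genes examined here encode 10 surface proteins that are used, with antibodies, to recognise and sort blood stem cells: Kit, Flt3, Slamf1, Cd48, Cd34, Procr, Ly6a, Tek, Eng and Esam. Their regions were found by name. A peak of the master peak-list was taken as theirs when its Gene Name, the gene with the nearest transcription start site (TSS) in the HOMER annotation, was a member. By this rule the members held 52 of the 84243 peaks (0.0617%), and all 10 had at least 1. For scale, the list names 16270 protein-coding genes and RefSeq holds 21000 curated ones, so a gene with a peak was common. The list comes from ATAC-seq, which reads open chromatin through transposase insertion, on 12 samples of 6 cell types sorted from wild-type C57BL/6 mice aged 8 to 12 weeks, with 2 replicates per cell type. Those were HSCs (cKit+ Lin- Sca1+ Flk2- Slamf1+), megakaryocyte progenitors (MkPs, cKit+ Lin- Sca1- Slamf1- CD41+), erythroid progenitors (EPs, CD71+ Ter119±), granulocyte/macrophages (GMs, positive for Gr1 and Mac1) and B cells (CD43- B220+), all from bone marrow, and CD3+ CD25- T cells, whose labels give thymus. The proteins of Kit, Ly6a (Sca1), Flt3 (Flk2) and Slamf1 were therefore part of the sort itself. All samples were pooled into 1 list, which names no cell type for a peak, holds 0 columns per sample and gives a score of 0 to each peak. Every value below is a position, a count or a sequence, with no error between replicates, no depth and no test, and a peak shows only that some cell type, not named, passed the call there. Whether the markers were accessible in HSCs, and the labelled cell types themselves, could not be checked.

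Blood stem cells are rare and are isolated by combinations of antigens rather than by any single protein. Kit, the receptor of stem cell factor, and Ly6a, a small protein held in the membrane by a lipid anchor, mark the compartment of stem and multipotent cells. Flt3, a receptor tyrosine kinase related to Kit, and Cd48, a SLAM family protein, are gained as multipotent cells lose long-term activity. Slamf1 (CD150), a second SLAM family receptor, is kept on stem cells. Cd34 is a sialomucin, and Procr is the receptor of protein C. Tek (Tie2) is the receptor of the angiopoietins, Eng (endoglin) is a co-receptor for the TGF-beta family, and Esam is an adhesion molecule of cell junctions. Cd34, Procr, Tek, Eng and Esam are also made by endothelium, the tissue from which blood stem cells arise in the embryo. GATA, ETS and RUNX proteins and the E-box protein SCL are the transcription factors best known for binding together at regulatory elements of stem cells.

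The sequences shown as examples come from 6 member peaks and 2 peaks inside Eng. Each is a stretch of 300 bp in mm10 that was placed to take in composite, GATA and RUNX sites before ETS sites. Sites of a peak outside its stretch are not shown, among them both ETS sites of the Slamf1 peak. The first 3 held a composite of an E-box part and a GATA site. No other member peak held it (5.77% of the member peaks, against 2.33% of the list). In the central 200 bp of the peaks the shares were 1.92% and 1.56%. The sequences of Slamf1, Procr, Tek and Ly6a come from the 4 member peaks in which GATA, ETS and RUNX motifs occurred together. Such peaks made up 7.69% of the member peaks, against 8.38% of the list. The last 2 sequences lie in an intron of Eng and carry the name of another gene in the list. Capitals mark the GATA motif (AGATAA), the ETS motif (AGGAAA or AGGAAG), the RUNX motif (ACCACA) and the E-box part (CTG) of the composite, on either strand, so that a site on the minus strand appears as the reverse complement.
Kit, 114389 bp upstream of the TSS, chr5:75460448-75460747, plus strand: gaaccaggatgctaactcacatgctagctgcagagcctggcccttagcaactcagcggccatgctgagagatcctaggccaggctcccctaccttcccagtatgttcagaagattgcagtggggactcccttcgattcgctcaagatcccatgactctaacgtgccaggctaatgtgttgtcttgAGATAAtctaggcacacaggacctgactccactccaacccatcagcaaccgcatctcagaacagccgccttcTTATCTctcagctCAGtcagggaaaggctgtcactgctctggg
Cd34, 12644 bp upstream, chr1:194926031-194926330, plus strand: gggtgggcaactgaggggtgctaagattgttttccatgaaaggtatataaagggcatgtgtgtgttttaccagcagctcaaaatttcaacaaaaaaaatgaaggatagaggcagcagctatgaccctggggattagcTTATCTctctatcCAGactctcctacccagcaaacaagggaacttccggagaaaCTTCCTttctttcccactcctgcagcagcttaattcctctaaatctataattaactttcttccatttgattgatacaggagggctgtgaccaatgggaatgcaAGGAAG
Slamf1, 15591 bp downstream, intron 3, chr1:171782498-171782797, plus strand: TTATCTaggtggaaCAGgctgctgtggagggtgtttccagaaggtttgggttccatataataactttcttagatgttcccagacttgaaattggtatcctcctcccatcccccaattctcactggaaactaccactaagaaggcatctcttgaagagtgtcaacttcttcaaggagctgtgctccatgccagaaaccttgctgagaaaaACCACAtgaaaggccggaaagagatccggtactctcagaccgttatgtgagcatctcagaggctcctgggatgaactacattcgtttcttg
Procr, 8036 bp upstream, chr2:155742954-155743253, plus strand: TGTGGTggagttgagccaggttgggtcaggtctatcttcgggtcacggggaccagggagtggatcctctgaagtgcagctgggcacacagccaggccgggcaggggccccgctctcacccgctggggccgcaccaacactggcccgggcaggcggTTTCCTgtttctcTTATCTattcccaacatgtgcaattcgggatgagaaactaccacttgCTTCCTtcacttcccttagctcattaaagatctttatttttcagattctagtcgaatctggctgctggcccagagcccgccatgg
Tek, promoter peak centred 95 bp downstream, chr4:94739234-94739533, plus strand: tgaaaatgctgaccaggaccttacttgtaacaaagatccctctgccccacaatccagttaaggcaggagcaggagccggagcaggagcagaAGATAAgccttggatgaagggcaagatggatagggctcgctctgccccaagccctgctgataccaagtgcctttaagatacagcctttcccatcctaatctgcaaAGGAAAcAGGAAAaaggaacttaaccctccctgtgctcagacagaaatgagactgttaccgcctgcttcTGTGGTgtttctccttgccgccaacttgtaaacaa
Ly6a, 5101 bp downstream, chr15:74992780-74993079, plus strand: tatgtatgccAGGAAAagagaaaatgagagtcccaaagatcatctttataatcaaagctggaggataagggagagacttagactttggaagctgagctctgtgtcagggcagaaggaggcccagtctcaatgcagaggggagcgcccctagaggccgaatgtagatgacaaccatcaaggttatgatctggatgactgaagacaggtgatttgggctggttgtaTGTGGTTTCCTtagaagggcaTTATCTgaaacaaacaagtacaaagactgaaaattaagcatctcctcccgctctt
Eng, intron 1, 8714 bp downstream, chr2:32655208-32655507, plus strand: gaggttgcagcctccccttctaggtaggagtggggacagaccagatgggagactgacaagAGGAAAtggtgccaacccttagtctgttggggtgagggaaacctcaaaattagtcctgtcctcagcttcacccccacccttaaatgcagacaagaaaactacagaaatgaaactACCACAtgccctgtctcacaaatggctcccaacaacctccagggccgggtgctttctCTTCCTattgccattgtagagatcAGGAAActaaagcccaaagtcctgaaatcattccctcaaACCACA
Eng, intron 1, 9369 bp downstream, chr2:32655814-32656113, plus strand: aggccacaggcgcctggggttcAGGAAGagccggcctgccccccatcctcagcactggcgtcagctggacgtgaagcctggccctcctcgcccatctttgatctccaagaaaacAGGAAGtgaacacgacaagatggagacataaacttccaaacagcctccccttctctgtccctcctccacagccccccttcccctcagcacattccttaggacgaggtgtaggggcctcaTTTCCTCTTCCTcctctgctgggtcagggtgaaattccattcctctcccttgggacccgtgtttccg

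The 52 peaks comprised 8 promoter peaks (centre no further than 500 bp from the TSS), 19 intronic peaks, 23 intergenic peaks and 2 other genic peaks. Promoter peaks made up 15.4% of the member peaks, against 15.6% of the whole list. Intronic peaks made up 36.5%, against 40.5% of the list, and intergenic peaks 44.2%, against 37.6%. These shares lie near those of the list, and the intergenic share rested on Kit, which held 12 of the 23. Of the 44 non-promoter peaks, 17 lay upstream and 27 downstream of the TSS. Kit held 4 of the upstream and 11 of the downstream ones, and the split over the list was not computed. The median distance of the 44 from the TSS was 16495 bp (22261 bp over the non-promoter peaks of the list). Within 10 kb of the TSS lay 15 of them (34.1%), against 28.9% of all non-promoter peaks. A repeat was annotated at 7 member peaks (13.5%), against 15.1% of the list. The CpG island label was carried by 2 intronic peaks, in Kit and Esam, and its share over the list was not computed. A peak carries a single detailed label, and no member promoter peak carried this one. Promoter peaks rich in CpG, such as that of Flt3 (GC content 71.3%), may therefore lie on islands without being counted.

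**Figure D1:**
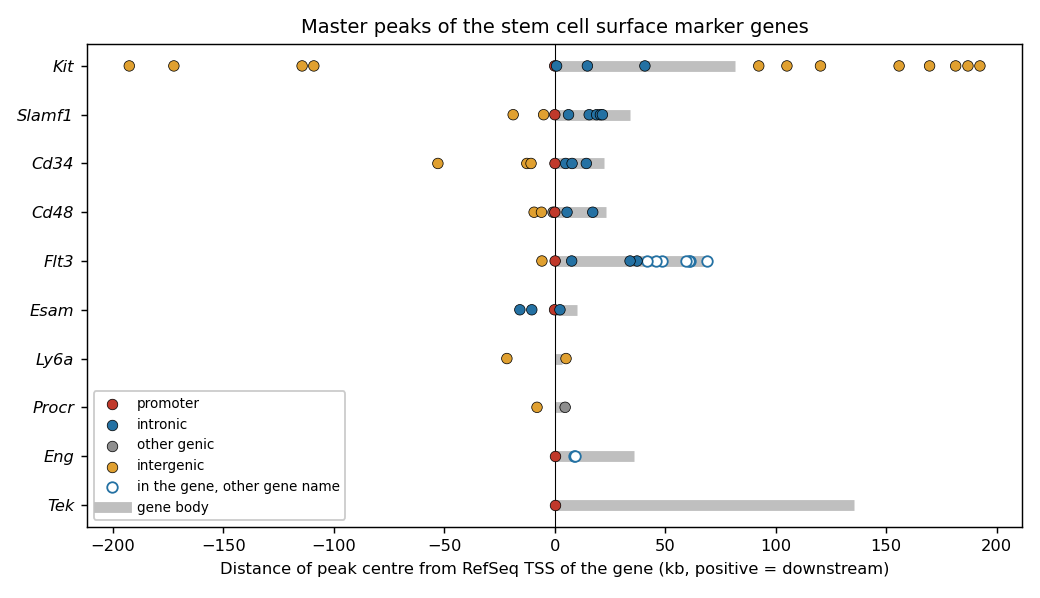
Position of each master peak of the 10 genes, as the distance in kb of its centre from the RefSeq TSS of the gene, with the gene body in grey, filled points coloured by class for peaks that carry the name of the gene, and open points for peaks inside the gene that carry another name. Kit peaks run from 192637 bp upstream to 192489 bp downstream of that TSS (192485 bp by the HOMER distance), Tek has only its promoter peak, and the 7 open points of Flt3 fill the 3′ part of its body.

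The members differed widely in the number of peaks. Kit had 16, Slamf1 8, Cd34 7, Cd48 6, Flt3 5 and Esam 4. Procr and Ly6a had 2 each, and Tek and Eng had 1 each. The median was 4.5 per member, against 3.0 over the 19040 genes named in the list (quartiles 1.0 and 5.0). Kit lay farthest out in that distribution, with 3.56% of named genes holding at least as many peaks. For Slamf1 this share was 15.8%, for Cd34 19.6%, for Cd48 24.5%, for Flt3 31.8% and for Esam 41.2%. A gene with a single peak, as Tek and Eng were by name, was common, with 4838 such genes (25.4%). These percentages describe the list and test nothing.

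**Figure D2:**
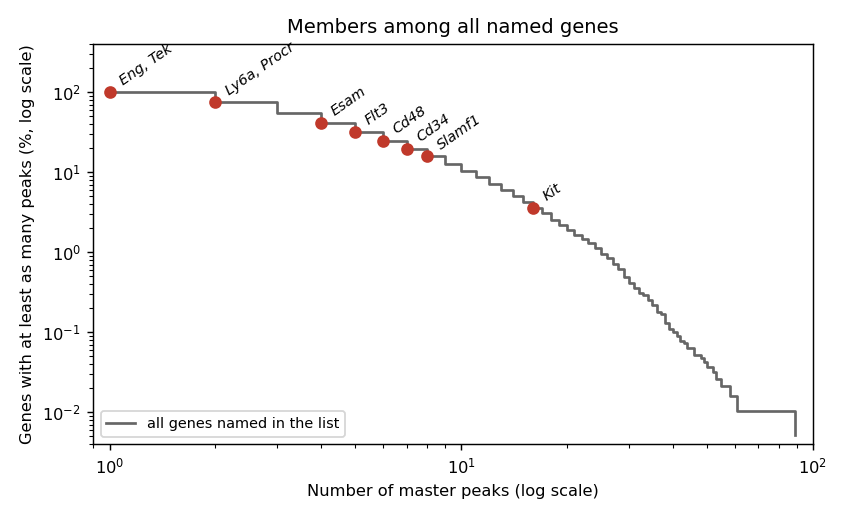
Share of the genes named in the list (%, log scale) that have at least a given number of master peaks (log scale), with the 10 members as points on that curve. Kit, with 16 peaks, sits at 3.56%, and Slamf1, the next member, at 15.8%.

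The count of peaks and their density put the members in different orders. Measured as all peaks between the TSSs of the flanking genes with a coding transcript, the interval of Kit, from Pdgfra to Kdr, was 826204 bp long and held 30 peaks, or 3.63 per 100 kb, the ninth of the 10 values. Cd48 had the highest value, 15.5 peaks per 100 kb (9 peaks in 58033 bp), but its interval ends at Tma7-ps, a gene that RefSeq names as a pseudogene and lists with a coding transcript, between Cd48 and Slamf1. With Slamf1 as the flanking gene in its place, an alternative chosen after the data were seen, Cd48 fell to the fifth place with 9.64 (11 peaks in 114095 bp). With Tma7-ps kept, the next values were those of Flt3 with 13.9, Eng with 11.6, Slamf1 with 10.1 and Esam with 10.0. Procr (6.54), Ly6a (6.12) and Cd34 (5.72) lay closer to the median of 5.00 over the intervals of 20954 genes. Tek was the sparsest, with 1.79 peaks per 100 kb. Of the 3 members with the most peaks (Kit, Slamf1 and Cd34), 0 were among the 3 with the densest intervals (Cd48, Flt3 and Eng), and without Tma7-ps 1 was, Slamf1, behind Flt3 and Eng.

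Promoter peaks were found at 8 of the 10 genes, Procr and Ly6a being the exceptions. Over all protein-coding genes named in the list, 70.9% had a promoter peak, and over all curated RefSeq protein-coding genes the share was 60.3%, against which the 8 of 10 members are too few genes to set them apart. The centres of the 8 peaks lay close to the TSS. That of Eng was 18 bp upstream, that of Kit 26 bp upstream and that of Esam 90 bp upstream. The centre lay 27 bp downstream in Slamf1, 34 bp in Cd48, 95 bp in Tek, 100 bp in Cd34 and 181 bp in Flt3, where HOMER placed the peak in the 5′ untranslated part of exon 1. The nearest peaks just outside the limit of 500 bp were a Cd48 peak 786 bp upstream of the TSS (chromosome 1, 171680957 to 171681455), which HOMER still annotated as promoter, and a Kit peak 824 bp downstream, in intron 1 and on a CpG island (chromosome 5, 75575566 to 75576064). In Ly6a the nearest peak centre was 5101 bp from the TSS, and in Procr 4708 bp.

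**Figure D3:**
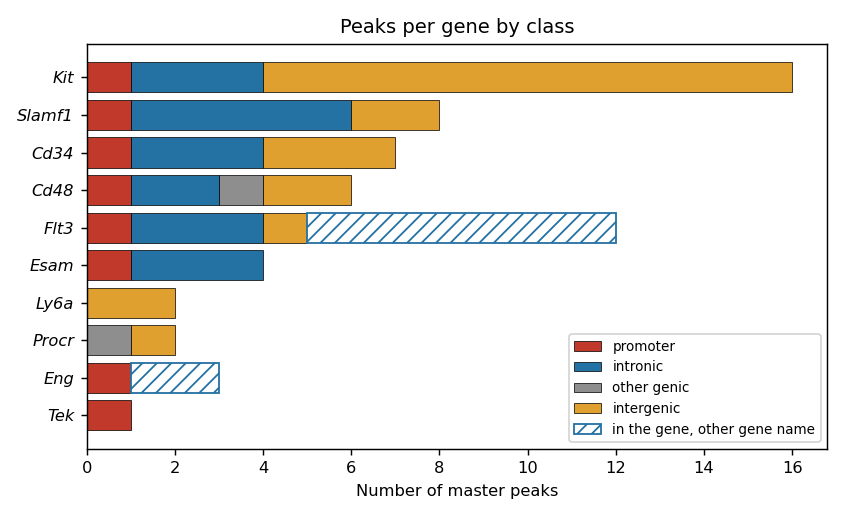
Number of master peaks of each gene by class, with hatched bars for peaks inside the gene that the list names for another gene. Kit has 16 peaks by name, of which 12 are intergenic, and the hatched bars raise Flt3 from 5 to 12 and Eng from 1 to 3.

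Promoters of mammalian genes fall broadly into those rich in CpG dinucleotides, which are often accessible in many tissues, and those poor in them. The RefSeq promoter table (GRCm38.p6, 250 bp before to 50 bp after the TSS) matched 8 members, all but Ly6a and Esam. The ratio of observed to expected CpG was 0.149 in Tek, 0.202 in Eng, 0.223 in Slamf1, 0.374 in Cd34, 0.417 in Cd48, 0.528 in Procr, 0.621 in Kit and 0.647 in Flt3. The 32851 promoters of the table fell apart by this ratio, with a median of 0.749 (quartiles 0.524 and 0.903) for the 14307 with a peak within 500 bp and of 0.218 (quartiles 0.113 and 0.376) for the 18544 without. All 7 matched members with a promoter peak had a ratio under that median of 0.749, and Tek, Eng, Slamf1 and Cd34 lay between the quartiles of promoters without a peak. Over all 32851 promoters the median was 0.384. Tek, Eng, Slamf1 and Cd34 lay below it, and Cd48, Procr, Kit and Flt3 above it. Among the peaks themselves, 7 of the 8 member promoter peaks had a ratio under the median of all promoter peaks (0.778), the exception being Flt3 with 0.794. Procr, without a promoter peak, had a higher ratio than 5 of the matched members with one.

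The promoter of Procr is shown because it held no peak. Capitals mark, in this order, a CEBP motif (TTGCNNAA, here on the minus strand), an AP-1 motif (TGANTCA), an E-box (CAGCTG) and an ETS motif.
Procr, RefSeq promoter, chr2:155750967-155751266, plus strand: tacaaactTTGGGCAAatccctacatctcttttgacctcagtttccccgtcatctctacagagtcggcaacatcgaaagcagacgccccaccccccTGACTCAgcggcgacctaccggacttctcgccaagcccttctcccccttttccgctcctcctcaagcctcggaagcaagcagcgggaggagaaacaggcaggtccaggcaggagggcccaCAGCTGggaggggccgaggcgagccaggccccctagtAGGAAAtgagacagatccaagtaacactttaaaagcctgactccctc

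**Figure D4:**
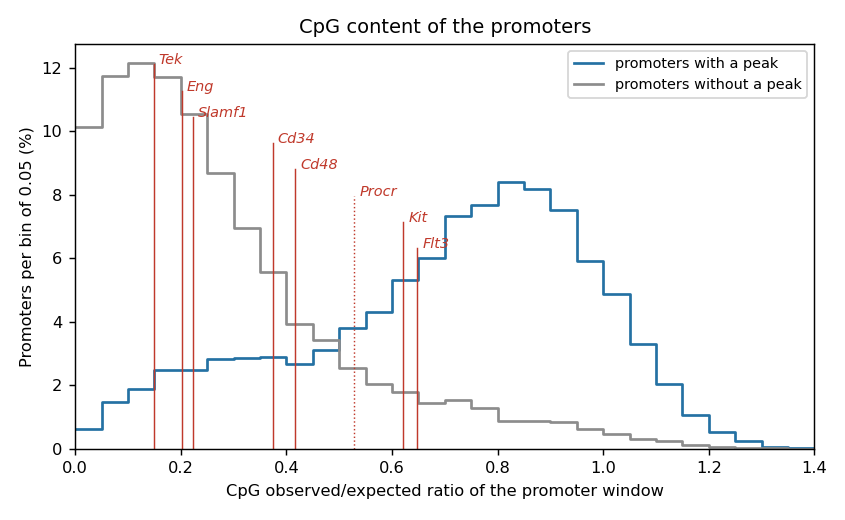
Distribution of the ratio of observed to expected CpG over RefSeq promoters with and without a peak within 500 bp (% of promoters per bin of 0.05), with the 8 matched members as vertical lines, dotted for Procr, which has no promoter peak. The lines of Tek (0.149), Eng (0.202), Slamf1 (0.223) and Cd34 (0.374) fall between the quartiles of promoters without a peak (0.113 and 0.376). Those of Kit and Flt3 lie nearest to the bulk of promoters with a peak.

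Kit, on the plus strand of chromosome 5 (75574987 to 75656722, 21 exons), encodes the receptor tyrosine kinase that gives stem cells their response to stem cell factor. Its 16 peaks spread over 385126 bp. Beside the promoter peak (75574712 to 75575210), 3 were intronic. These lay 824 bp and 14771 bp downstream of the TSS, in intron 1 of 20, and 40812 bp downstream, in intron 5. The other 12 were intergenic, with 4 upstream and 8 beyond the 3′ end of the gene. All 4 upstream peaks were more than 100 kb away, at 192637, 172447, 114389 and 109086 bp. No peak of the list, of any name, lay between the last of these and the promoter. The centres of the 8 peaks beyond the gene began 10623 bp past its 3′ end and lay 92354 to 192485 bp from the TSS. Kit was the only member with peaks more than 100 kb from its TSS, with 11 of them (21.2% of the 52 member peaks), against 10.9% of the peaks of the list. The neighbouring receptor genes lie far off, the TSS of Pdgfra at 422736 bp and that of Kdr at 403468 bp. Of the 30 peaks between those starts, 16 were named for Kit, and which of them act on Kit was not tested.

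In the peak 114389 bp upstream of Kit (75460349 to 75460847), shown above, AGATAA occurred 2 times. The first site, on the plus strand, lay 37 bp from the peak centre. The second, on the minus strand, lay 109 bp from it and belonged to a composite with a CTG, from 75460705 to 75460720. It was the only upstream Kit peak without an ETS motif. In all, 5 of the 16 Kit peaks held a GATA motif, 5 an AP-1 motif, 4 a CEBP motif and 3 a RUNX motif. Over all peaks of the list the shares with these motifs, in the same order, were 24.1%, 15.3%, 19.3% and 38.9%. The intronic peak 40812 bp downstream held 4 CEBP motifs, the most of any member peak. By the number of promoter, intronic, other genic and intergenic peaks (1, 3, 0 and 12), 3 other genes had the same counts as Kit, namely Aqp4, Cdc7 and Ift57, a likeness of counts over 1 pooled list and nothing more.

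Flt3, the receptor of Flt3 ligand, lies on the minus strand of chromosome 5 (147330741 to 147400489, 24 exons). By name it had 5 peaks. The promoter peak (147400059 to 147400557) held no GATA and no ETS motif and had the highest GC content of all member peaks, 71.3%. Of the intronic peaks, 1 lay in intron 1, 7654 bp from the TSS, and 2 in intron 9, 34091 and 37259 bp from it. The fifth was intergenic, 5815 bp upstream. A further 7 peaks were centred in introns of Flt3 but carry the name Urad, whose TSS lies 78049 bp from that of Flt3, past its 3′ end, and is nearer to them. These lay 41793 to 68733 bp downstream of the Flt3 TSS. Intron 9 held 1 of them, intron 15 held 2, intron 20 held 3 and intron 23 held 1. Counted by position, the body of Flt3 therefore held 10 peaks beyond its promoter, of which the Gene Name gave 3 to Flt3. Of the 7, 1, in intron 15, had a GATA motif and 6 had an ETS motif. Among all non-promoter peaks of the list, 26.9% had a GATA motif and 83.3% an ETS motif.

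Eng, on chromosome 2 (32646595 to 32682669, plus strand, 15 exons), had only a promoter peak by name (32646328 to 32646826), with 3 ETS motifs and no GATA or RUNX motif. Inside its intron 1 were 2 more peaks, at 32655060 to 32655558 and at 32655715 to 32656213, whose centres lay 8714 and 9369 bp downstream of the Eng TSS and 655 bp from each other. Both carry the name of the microRNA gene Mir1954, whose TSS is 5734 bp from that of Eng. The first had 4 ETS and 2 RUNX motifs, and the second 5 ETS motifs and 1 E-box, and neither had a GATA motif. The nearest peak on the other side lay 8605 bp upstream of Eng, intergenic, and was named for Ak1. Enhancers upstream and downstream of the Eng TSS are known from studies of endothelium and blood, and whether these peaks match them was not tested.

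Across the members, 26 non-promoter peaks were centred in a gene body, and 9 of them (34.6%), the 7 of Flt3 and the 2 of Eng, carried another name. Over peaks of the list that lie in a single protein-coding gene, the share was 28.2%, so a peak inside a gene that is named for a neighbour was common. The reverse also occurred. Of the 3 intronic peaks of Esam, the ones 15800 and 10403 bp upstream of its TSS lay in introns 1 and 2 of the neighbouring gene Msantd2.

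Slamf1 and Cd48 are neighbours in the SLAM gene cluster of chromosome 1, with TSSs 85140 bp apart. Both are on the plus strand. Slamf1 (171767132 to 171801184, 7 exons) had 8 peaks, and 5 of them were intronic, the most of any member by name. Of these, 1 lay in intron 1, 6230 bp from the TSS, on an L2 repeat. The other 4, at 15591, 18948, 20677 and 21572 bp, filled a stretch of 5981 bp, with 3 in intron 3 and 1 in intron 4 of the transcript that HOMER used. Upstream were 2 intergenic peaks, at 5043 and 18831 bp. A GATA motif occurred in 4 of the 8 peaks (24.1% of all peaks of the list), among them the peak 18831 bp upstream, with 3 sites. The intronic peak at 15591 bp held the composite at its edge, 217 bp from the centre.

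Cd48 (171681992 to 171705257, 4 exons) had 6 peaks within 17190 bp of its TSS. Beside the promoter peak (171681777 to 171682275) there were peaks 786, 6015 and 9348 bp upstream, and peaks in introns 1 and 2, 5555 and 17190 bp downstream. None held a GATA motif. A CEBP motif occurred in 3 of the 6, all upstream. Over all peaks of the list, 24.1% had a GATA motif and 19.3% a CEBP motif. The other 7 SLAM family genes had 39 peaks, with a median of 6.0 per gene, and 5 of the 7 had a promoter peak. Cd84, next to Slamf1, had the most (10, none at the promoter) and Slamf8 the fewest (1).

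Cd34, further along chromosome 1 (194938821 to 194961292, plus strand, 8 exons), had 7 peaks. Intergenic peaks lay 52912, 12644 and 10739 bp upstream, and intronic ones 4925 and 7840 bp downstream, in intron 1, and 14296 bp downstream, in intron 4. The peaks at 12644 and 10739 bp upstream and at 4925 bp downstream each held 1 GATA motif. In the first of these (194925928 to 194926426), the site lay 7 bp from the peak centre, the smallest distance of any GATA site of the members together with one in Slamf1, and formed a composite with a CTG from 194926168 to 194926183. Each Cd34 peak had at least 1 ETS motif and none a RUNX motif, against 80.2% and 38.9% of all peaks with these motifs. Downstream of the gene, the TSS of the non-coding gene Gm16897 is 38138 bp from that of Cd34, and peaks there carry its name. With non-coding genes left out, 15 peaks had Cd34 as nearest gene, an assignment chosen after the data were seen.

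Ly6a (Sca1) and Procr are short genes with few peaks and none at the promoter. Ly6a, on the minus strand of chromosome 15 (74994877 to 74998031, 4 exons), had 2 intergenic peaks, 5101 bp downstream of the TSS, past the 3′ end (74992681 to 74993179), and 21680 bp upstream, on an MLT1B repeat (75019462 to 75019960). The downstream peak held 1 GATA, 3 ETS and 2 RUNX motifs, and in 1 place the RUNX and ETS motifs overlapped. The upstream peak was the only member peak with a CTCF consensus. Ly6 genes are near copies of each other and reads with several alignments were left out by the authors, so peak counts in this cluster are uncertain. In 12 other genes of the Ly6 cluster the median was 1.0 peak per gene, from 0 in Ly6f to 15 in Ly6e, and 5 of the 12 had a promoter peak.

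Procr, on chromosome 2 (155751217 to 155755478, plus strand, 4 exons), had 1 intergenic peak 8036 bp upstream (155742932 to 155743430) and 1 at its transcription termination site, 4708 bp downstream (155755676 to 155756174). The upstream peak held all of GATA, ETS, RUNX and E-box motifs, with AGATAA 57 bp from the centre. The peak at the gene end had 1 motif each for ETS, E-box and AP-1.

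Tek and Esam encode proteins shared with endothelium. Tek, on chromosome 4 (94739289 to 94874976, plus strand, 23 exons), has the longest body of the members, 135688 bp, and held no peak in it beyond the promoter peak (94739135 to 94739633). Of 1558 protein-coding genes with a body at least as long, 8.6% had none either. The next peak centre was 48116 bp upstream. The Tek promoter peak was the only one of the 8 with a GATA motif, 57 bp from its centre, and also held 2 ETS motifs and 1 RUNX motif. Esam, on chromosome 9 (37528089 to 37538319, plus strand, 7 exons), had its promoter peak (37527750 to 37528248), which held 2 E-boxes and no ETS motif, and a peak in its own intron 1, 2351 bp downstream and on a CpG island, with 5 ETS motifs. Of the 6 endothelial genes set beside them (Kdr, Cdh5, Pecam1, Emcn, Icam2 and Tie1), 5 had a promoter peak, with a median of 7.0 peaks, from 1 in Tie1, the relative of Tek, to 14 in Kdr.

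Motifs were searched as exact consensus strings on both strands of each whole peak (499 bp), and each share is set beside that of all peaks of the list. The GATA motif (AGATAA) occurred in 16 of the 52 member peaks (30.8%), against 24.1% of the list. ETS (AGGAAA or AGGAAG) occurred in 46 (88.5%), against 80.2%, and in at least 1 peak of every member. RUNX (ACCACA) occurred in 12 (23.1%), against 38.9%, the largest gap below the list. E-boxes (CAGCTG or CAGGTG) occurred in 26 of the 52, against 51.9%. CEBP (TTGCNNAA) occurred in 11 (21.2%), against 19.3%, and AP-1 (TGANTCA) in 13 (25.0%), against 15.3%. The CTCF consensus occurred in 1 peak (1.92%), against 7.68%. The composite, CTG followed after 7 or 8 bases by AGATAA, occurred in 3 peaks (5.77%), against 2.33%, and by construction contains a GATA motif. GATA, ETS and RUNX occurred together in 4 peaks of 4 members (7.69%), against 8.38% of the list. The search was repeated in the central 200 bp of each peak. GATA was found there in 11 member peaks (21.2%), against 11.2% of the list, AP-1 in 9 (17.3%), against 7.94%, and ETS in 33 (63.5%), against 56.2%. RUNX was found in 5 (9.62%), against 23.2%, E-boxes in 11 (21.2%), against 28.9%, and CEBP in 7 (13.5%), against 8.84%. The CTCF consensus and the composite were each found in 1 (1.92%), against 6.92% and 1.56%. With 52 peaks of 10 genes, several from the same locus, these shares describe the members, and no difference from the list was tested.

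**Figure D5:**
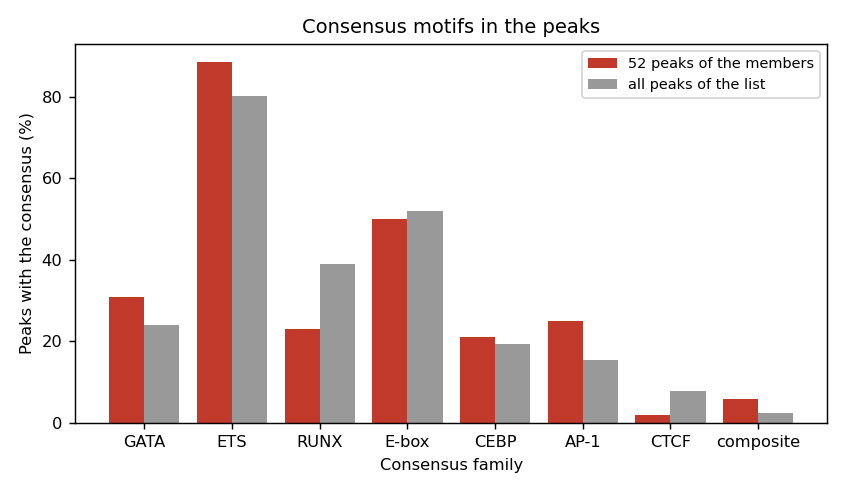
Share (%) of the 52 member peaks and of all 84243 peaks of the list that hold each consensus family. ETS is the most frequent in both, RUNX is lower among the members (23.1% against 38.9%) and GATA and AP-1 are higher (30.8% against 24.1%, and 25.0% against 15.3%).

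Of the 16 peaks with a GATA motif, 12 belonged to Kit (5 of its 16 peaks), Slamf1 (4 of 8) and Cd34 (3 of 7), which together held 31 of the 52 member peaks. Another 4 members, Flt3, Cd48, Eng and Esam, had none by name. Ly6a had one in both of its peaks, and Procr and Tek in 1 peak each. All but the Tek peak were non-promoter peaks. CEBP motifs were found in Kit (4 peaks), Cd48 (3), Flt3 (2) and Esam (2) and in no other member, and like AP-1 in no promoter peak. Across the list, 8.66% of promoter peaks and 26.9% of non-promoter peaks had AGATAA. A CEBP motif occurred in 11.6% of all promoter peaks and an AP-1 motif in 6.80%.

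The partners of these receptors are genes of other cells as well as blood cells. All 9 ligands and partners examined (Kitl, Flt3l, Angpt1, Angpt2, Tie1, Proc, Acvrl1, Tgfbr1 and Tgfbr2) had a peak, with a median of 6.0, and 5 had a promoter peak. Angpt1, a ligand of Tek, had the most, 18, of which none was at the promoter. Tie1, also in the endothelial list, had the fewest, 1. The 3 related receptors Csf1r, Pdgfra and Pdgfrb each had a promoter peak, with a median of 5.0 peaks, from 3 in Pdgfra to 7 in Pdgfrb. Among 11 antigens of the other sorts, the median was 4.0 peaks, close to the 4.5 of the members, and 9 had a promoter peak. Ptprc (B220) held the most with 12, and no peak was named for Cd8a. For these genes and the SLAM, Ly6 and endothelial genes above, the background was a median of 3.0 peaks per named gene. A promoter peak was found at 70.9% of the protein-coding genes named in the master peak-list and at 60.3% of curated RefSeq ones.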

How the data were processed

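ATAC-seq was performed on 12 samples of 6 sorted cell types. According to the methods of the study, the authors aligned reads to mm10 with the ENCODE ATAC-seq pipeline and left out multimapping reads. IDR optimal lists of each cell type were concatenated, filtered with chromVAR to peaks that do not overlap, and annotated with HOMER (4.10.2 per the labels). The positions and distances to the TSS were used as deposited, in bp and without normalization. The deposited Peak Score column reads 0 throughout and was not used as a score. The list holds 0 columns of values per sample, so depth is unknown and no test or error could be given.

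Member peaks were the rows whose Gene Name is one of the 10 genes. Class, order and promoter limit (500 bp) follow the distance and annotation columns. Gene bodies, TSSs, introns and sequence came from curated RefSeq transcripts of GRCm38.p6, the assembly named mm10. Motifs were searched as strings on both strands. The search was tested on simulated data, where 200 of 200 planted sites per family were found. Named genes were the 10 members, genes that flank them or lie between them and a peak, the genes of 6 lists (with values only for the most and fewest peaks of a list), and the 3 genes with peak counts most like those of the member with the most peaks. Members, lists and motifs were chosen with earlier results of these data known. Alternatives concerned assignment, promoter, intron and distal definitions, and the part of the peak searched. Python 3.11.15, numpy 2.4.6, pandas 2.3.3 and matplotlib 3.10.9 were used.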

Additional observations from a re-analysis of the deposited data

How the results depend on the processing

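Of 35 alternative values, 27 were within 1.5 times of the reported one and 8 moved further. The 52 member peaks became 47 with the nearest curated RefSeq TSS, 50 in the gene body or within 10 kb of it, and 61 with coding transcripts only, an alternative chosen after seeing the data. They became 114 under the basal plus extension rule and 197 within 100 kb of the TSS, which by construction take in peaks nearer to other genes. The nearest curated TSS left Flt3 with 1 peak, the upstream one, and gave the other 4 to the non-coding gene Gm26597, whose curated starts lie 35 and 935 bp from the Flt3 TSS. Promoter peaks ran from 7 to 10 and members with one from 7 to 8, Flt3 being lost within 100 bp of a TSS and under the HOMER class. Intronic peaks were 19 or 26 and distal peaks 17 to 29. In the central 200 bp, RUNX was found in 5 peaks in place of 12, E-box in 11 in place of 26, CEBP in 7 in place of 11 and the composite in 1 in place of 3, since less sequence was searched. By peaks per 100 kb, 0 of the 3 members with the most peaks were among the first 3, and 1 was when genes named as pseudogenes were left out of the flanking genes, also chosen after seeing the data. No paired analysis was possible because the list holds no values per sample, and no replicate could be left out for the same reason.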
